A study of Homo sapiens with 12 samples.

Results

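The cytosolic ribosomal protein genes were followed in HepG2 cells (a cell line established from a human hepatocellular carcinoma) through a time course of insulin stimulation. Members were taken by symbol, as genes named RPL or RPS with a number and at most the ending A, L or X, plus RPLP0, RPLP1, RPLP2 and RPSA. The rule found 81 genes of 26364 in the count table, 32 of the small and 49 of the large subunit. It takes no mitochondrial ribosomal protein gene and no pseudogene. The libraries came from total RNA at 0, 5, 10, 30 and 240 min after insulin, with 2 replicates at each time and 10 libraries in all. All were of the unmodified line, with EMEM and fetal bovine serum as routine medium. The labels name no mutation, transgene or second drug and no difference between the times other than the insulin exposure. For insulin experiments the study's methods describe days in EMEM alone, then days in EMEM with albumin and a physiologic or pathologic insulin level. Insulin was then washed out before the acute dose. Which of these steps the RNA-seq cultures had is not stated in the RNA-seq methods. The treatment text deposited with every RNA-seq library, 0 min included, gives 3 nM insulin for 5 min after EMEM alone, while the titles give the times used here, so the dose over the time course is known only from a text at odds with the times. The study's methods state that RNA-seq was performed once with biologically independent samples, so p-values measure the spread between cultures of 1 experiment. HepG2 cells are 1 tumour line, and what holds in them may differ from normal hepatocytes.

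Every cytosolic ribosome is built from ribosomal RNA and a single copy of nearly every ribosomal protein, with more copies of the acidic stalk proteins only, so the cell makes these mRNAs in large and roughly matched amounts. In vertebrates these mRNAs begin with a run of pyrimidines, the 5′ terminal oligopyrimidine (TOP) tract. Through this tract the kinase mTORC1, which insulin activates by way of AKT and the TSC complex, raises their translation and, with the protein LARP1, controls their stability. The regulation for which the family is known is therefore mainly translational, and RNA-seq of total RNA measures only the amount of each mRNA.

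The sequence at the transcription start showed this common feature. RefSeq promoters (GRCh38.p14, 250 bases before to 50 after the start) matched 64 of the 81 genes, and 47 of them (73.4%) held a run of at least 8 C or T within 5 bases of the start, against 3087 of 27305 promoters of all genes (11.3%). The longest such run had a median of 11 bases in the members and 4 in all promoters. The lines that follow give 15 bases on each side of the start for the stalk genes, RPS6 and some members called lower at 240 min. They are on the strand of the gene, with the tract in capitals. The tract of RPL39, of 22 bases, runs beyond the bases printed.
RPLP0 (chr12:120201097-120201126, minus strand): gcgcgggcgcgaggCCCTTCTCTCgccagg
RPLP1 (chr15:69452803-69452832, plus strand): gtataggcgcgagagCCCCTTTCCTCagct
RPLP2 (chr11:809952-809981, plus strand): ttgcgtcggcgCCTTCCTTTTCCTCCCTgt
RPS6 (chr9:19380222-19380251, minus strand): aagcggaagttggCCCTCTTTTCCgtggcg
RPS19 (chr19:41860240-41860269, plus strand): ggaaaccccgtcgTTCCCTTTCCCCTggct
RPS21 (chr20:62387088-62387117, plus strand): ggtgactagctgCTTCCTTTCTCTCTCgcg
RPL39 (chrX:119791616-119791645, minus strand): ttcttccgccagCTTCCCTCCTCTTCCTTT
The remaining 17 matched genes had no such run in this window, and the following are shown because they differ in what their mRNAs did at 240 min.
RPS29 (chr14:49598696-49598725, minus strand): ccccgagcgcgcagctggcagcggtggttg
RPL11 (chr1:23691764-23691793, plus strand): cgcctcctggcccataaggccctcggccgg
RPS27L (chr15:63157463-63157492, minus strand): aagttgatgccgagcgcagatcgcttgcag
A start a few bases off in the annotation can move a tract out of reach of this search, so no match says only that these letters are not in the window. Among short motifs searched on both strands, CCGGAAG, the core bound by GABPA, stood in 22 of the 64 promoters (34.4%) and in 10.7% of all promoters. AAGATGG, a form of the YY1 site, stood in 8 (12.5%, against 6.06%), GGGCGG, the SP1 core, in 36 (56.2%, against 44.6%), and TATAAA in 6 (9.38%, against 12%). CACGTG, the E-box bound by MYC, stood in 3 (4.69%, against 7.43%). Each motif was counted on its own, so that 1 stretch may count for more than 1 of them, and the matches describe letters only.

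Depth ran from 18347109 to 45005769 counts on genes, the most in 0 min replicate 2, and 1.59% to 2.36% of counts lay on ERCC spike-ins, the most in 10 min replicate 2. Replicates differed by more than sampling noise at every time. Over the members, chi-square per degree of freedom was 3.32 at 0 min, 9.69 at 5 min, 2.73 at 10 min, 6.71 at 30 min and 14.6 at 240 min. Over all genes it was 4.59, 5.15, 2.86, 6.46 and 6.17 at these times. The replicates thus differed most over the members at 5 and 240 min. The 8 hepatocyte markers, albumin and apolipoproteins among them, summed to 66390 to 82280 CPM (counts per TMM-scaled library size), and the 9 markers of leukocytes, endothelium, fibroblasts and keratinocytes to 48.0 to 70.7 CPM, with PTPRC at 0 in every library and 5 of the 9 under 1 CPM throughout. The low sum of the foreign markers was mostly ACTA2, which ran from 42.3 to 65.5 CPM and was lower at 240 min (log2 fold change −0.30, edgeR adjusted p = 0.00215). In bulk samples fewer cells of a type and less RNA per cell cannot be told apart.

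Together the members took 1.95% to 2.12% of the gene counts of a library and 9.11% to 9.72% of its TPM, the StringTie abundance per transcript length. Their share of counts was 2.12% and 2.05% before insulin (0 min), 1.97% and 1.95% after 5 min, 2.08% and 2.10% after 10 min, 2.09% and 2.01% after 30 min, and 2.02% and 1.99% after 240 min. Both libraries at 5 min and both at 240 min lay below both at 0 min, and those at 10 and 30 min overlapped them in at least 1 library. In TPM the 5 and 240 min libraries again lay below both at 0 min. The values were 9.70% and 9.57% at 0 min, 9.32% and 9.11% after 5 min, 9.68% and 9.57% after 10 min, 9.72% and 9.47% after 30 min, and 9.40% and 9.23% after 240 min. The mean share of counts was thus 2.08% ± 0.0428 (SD, n = 2) before insulin, 1.96% ± 0.0128 after 5 min and 2.01% ± 0.0215 after 240 min. The 240 min difference was of the size of the gap between the replicates at 30 min, and the 5 min difference was larger than that gap. The small subunit genes held 0.811% ± 0.0219 of counts at 0 min and 0.771% ± 0.00315 at 240 min, and the large subunit genes 1.27% ± 0.0209 and 1.24% ± 0.0184.

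**Figure D1:**
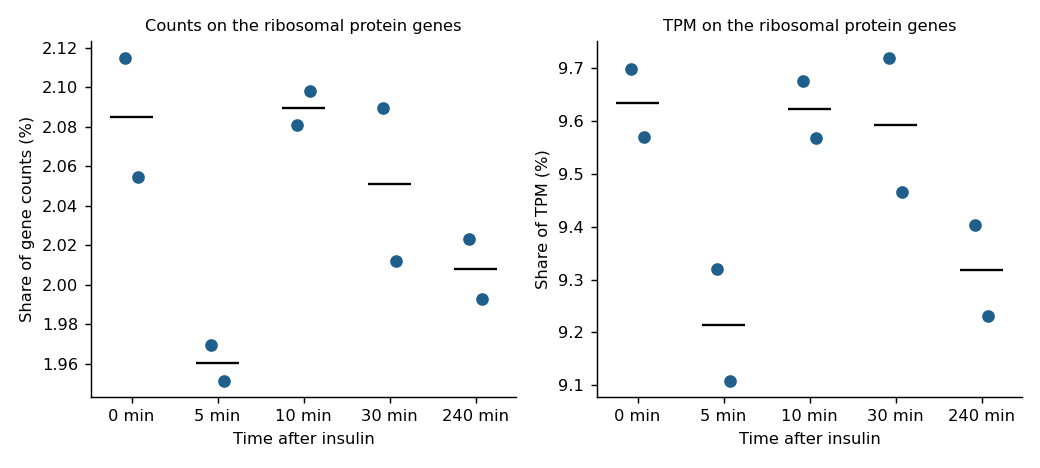
Share of each library's gene counts (left, %) and of its TPM (right, %) on the 81 ribosomal protein genes at the 5 times, with 1 point per library and a line at the mean of the 2 replicates; neither axis starts at 0. The 5 min libraries lie lowest, at 1.97% and 1.95% of counts, and the 240 min libraries also lie below both 0 min libraries.

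Levels between genes can be compared only in TPM. At 0 min, 76 of the 81 members stood at 100 TPM or more, 41 at 1000 or more and 12 at 2000 or more, with a median of 1030 TPM. RPL37A, a zinc-finger protein of the large subunit, was the most abundant, at 4866 and 4801 TPM. RPS6, the subunit protein that S6 kinase phosphorylates after insulin, followed at 3520 and 3479 TPM, and RPS18 at 3158 and 3141 TPM. These 3 ranks were clear of each other by more than the gap between replicates. At the other end were the copies expressed in few tissues. RPL3L, the form of RPL3 in heart and skeletal muscle, was listed at 0 TPM in every library with 0 to 8 counts, against 1902 and 1868 TPM for RPL3. RPL10L, an intronless copy of RPL10 used in testis, stood at 0.990 and 0.837 TPM, against 355 and 346 TPM for RPL10. RPL39L, the copy of RPL39, had 0 to 8 counts in a library and was listed at 0 TPM in 5 of the 10 libraries and at 30.2 to 33.8 TPM in the other 5, a split that its counts do not show. For RPL39 itself, which lines the exit tunnel, TPM was 1189 and 1184.

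Counts and TPM parted for some of the genes with many copies in the genome. Ribosomal protein genes have given rise to large numbers of processed pseudogenes, and a read that fits several places equally well cannot be assigned to 1 of them. For each gene, every run of 50 bases of its coding sequence, the read length given in the study's methods, was searched on GRCh37. The median gene had 48.4% of these runs also present elsewhere, 8 genes had all of them, and 4 genes had none. In the 18 genes with under 10% copied runs, a median of 19.97 CPM was counted per 100 TPM at 0 min (range 1.08 to 119). In the 25 genes with 10% to under 50% it was 24.8 CPM (13.8 to 127). In the 38 genes with 50% or more it was 12.1 CPM (0 to 125). The ranges thus overlapped, and RPL15, with 80.6% copied runs, had 62.4 CPM per 100 TPM. Over 79 genes the share of copied runs and log2(CPM/TPM) had a Spearman correlation of −0.53 and a Pearson correlation of −0.52, in which the points share the same libraries. TPM is divided by transcript length and CPM is not, so the ratio also depends on length, whose part was not tested.

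**Figure D2:**
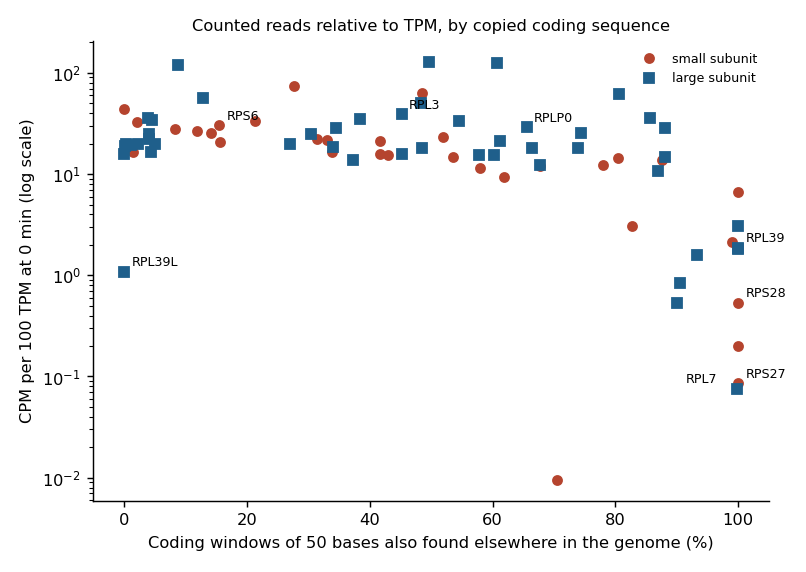
CPM counted per 100 TPM at 0 min (log axis) against the percentage of a gene's 50-base coding runs that also occur elsewhere in the genome, 1 point for each of 79 ribosomal protein genes (circles small subunit, squares large subunit). Most genes lie between 10 and 40. Of the genes with nearly all runs copied, some, such as RPL7, RPS27 and RPS28, fall below 1, and others, such as RPS26 and RPL36A, lie above 1. RPL39L lies low without any copied run.

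At the extreme, RPL21, all of whose runs had copies, was listed at 0 counts in every library and at 139 to 144 TPM in 4 libraries and 0 in the other 6. RPS27, a zinc-finger protein of the small subunit, had 5 to 24 counts, 0.200 to 0.650 CPM, and 633 to 685 TPM, while RPS27L, its relative without any copied run, had 104 to 122 CPM and 244 to 286 TPM. In all, 12 members stood under 5 CPM at 0 min, and 7 of these were over 100 TPM. How reads with several alignments were counted is not given in the sources used here, and its part in these gaps was not tested.

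The later times were set against 0 min with the quasi-likelihood test of edgeR over 13852 genes, and a Benjamini-Hochberg adjusted p under 0.05 was a call. Of the members 76 could be tested. Members that did not pass the filter on low counts include RPL3L, RPL10L, RPL39L and RPL21.

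At 5 min no member was called, as with every other gene tested (background 0%). The smallest adjusted p of a member was 0.243. Yet the fold changes leaned down, with a median of −0.09 on the log2 scale (quartiles −0.15 and −0.02) against 0.00 for all genes tested, and 64 of the 76 below 0. At an unadjusted p under 0.05, 29 members were lower (background 7.5%) and 1 was higher (background 6.76%). In 49 members both 5 min libraries lay below both 0 min libraries (background 23.9%). Because all members were read from the same libraries, such counts, here and at the later times, are not independent observations. DESeq2 called 0 members. Without the filter on low counts edgeR called 6, namely RPL39, RPLP1, RPS19, RPS2, RPS29 and RPS7, all lower (background 0.423% of 20553 genes).

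RPLP1 is an acidic protein of the stalk that recruits elongation factors. Of the members tested it had the smallest p at 5 min (edgeR, unadjusted p = 0.000172). Its fall is thus an extreme case beside the member median of −0.09 on the log2 scale, and RPS6, for example, stood at −0.02. RPLP1 had 190 and 176 CPM at 0 min, 154 and 149 after 5 min, 177 and 171 after 10 min, 175 and 153 after 30 min, and 148 and 151 after 240 min. The 5, 30 and 240 min libraries were all below both at 0 min. At 10 min replicate 2 was below both as well, and replicate 1 lay between them. Its log2 fold change was −0.27 ± 0.06 (SE) at 5 min (adjusted p = 0.243), −0.07 ± 0.06 at 10 min (adjusted p = 0.976) and −0.15 ± 0.06 at 30 min (adjusted p = 0.477).

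At 10 min the members sat with the rest of the genes. edgeR called 0 of the 76 (background 0.137%), 0 were lower (background 3.02%) and 1 higher (background 2.1%) at an unadjusted p under 0.05, DESeq2 called 0, and the median log2 fold change was −0.01 (quartiles −0.03 and 0.02). At 30 min edgeR again called 0 (background 0.332%), as did DESeq2. Unadjusted p-values under 0.05 were found for 6 lower (background 3.91%) and 3 higher members (background 4.22%), and the median was −0.04. The 30 min replicates differed from each other, and the median over the same 76 was −0.08 without the first and 0.00436 without the second.

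**Figure D3:**
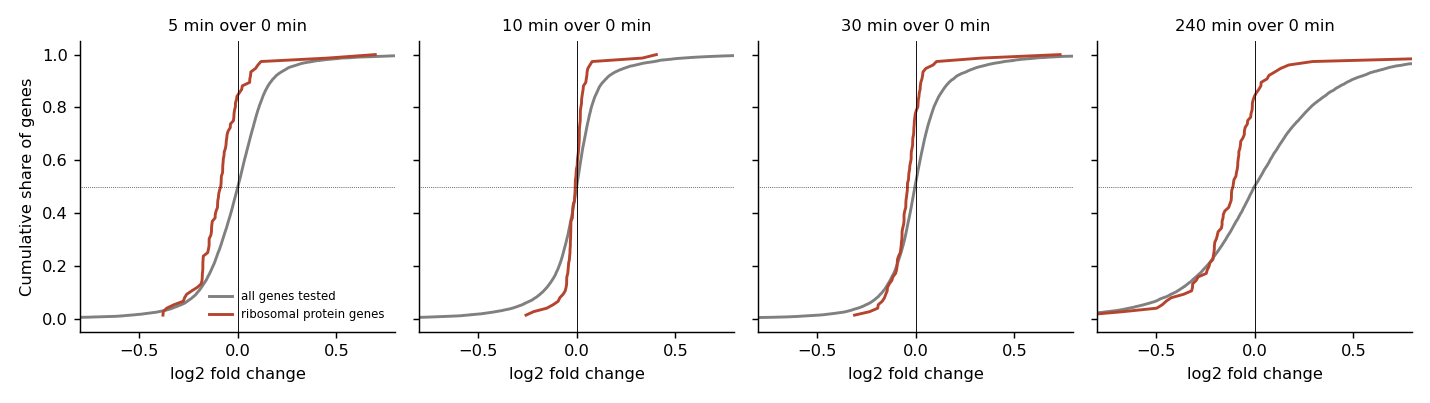
Cumulative share of genes against log2 fold change in counts over 0 min at each of the 4 later times, for the 76 ribosomal protein genes tested (red) and all 13852 genes tested (grey), shown from −0.8 to 0.8. The red curve lies to the left of the grey one at 5 and 240 min, where the medians are −0.09 and −0.11, and close to it at 10 min.

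At 240 min 31 of the 76 tested members were called lower (background 20.4%) and 3 higher (background 20.6%). The lower calls were 16 of 31 small and 15 of 45 large subunit genes. The changes were small, with a median over the 76 of −0.11 on the log2 scale (quartiles −0.21 and −0.03) against −0.00257 for all genes, and a median of −0.21 among the 31. Both 240 min libraries lay below both 0 min libraries in 47 members (background 34.9%). These include all 31, which were called from the same counts. DESeq2 called 29 members lower (background 17.1%), each of them among the 31, and 0 higher, with RPS28 and RPS3A at adjusted p = 0.0502 and 0.0558. How many were called depended on the unit and the scaling. limma on log2(TPM + 1) called 5 of 80 members lower (background 8.59% of 18379 genes), 4 of them among the 31. The median difference was −0.06. Over the genes tested in counts, limma called 5 of 76 members and 1523 of 13839 genes lower. In TPM the members were thus called lower no more often than other genes. Below 0 in TPM were 52 of the 76 members, against 6194 of those 13839 genes. Of the 31, which were picked as lower in counts from the same reads, 30 were below 0. Scaling by the spike-ins, which put the median of all genes 0.12 lower at 240 min, left 5 lower (background 5.26%) and 0 higher, with a median of −0.23. Correction for GC content and length left 42 (background 24.5%). Leaving out 0 min replicate 1 left 18 lower, and 12 of the 31 kept their call in each of the 4 fits that left out a 0 or 240 min library.

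**Figure D4:**
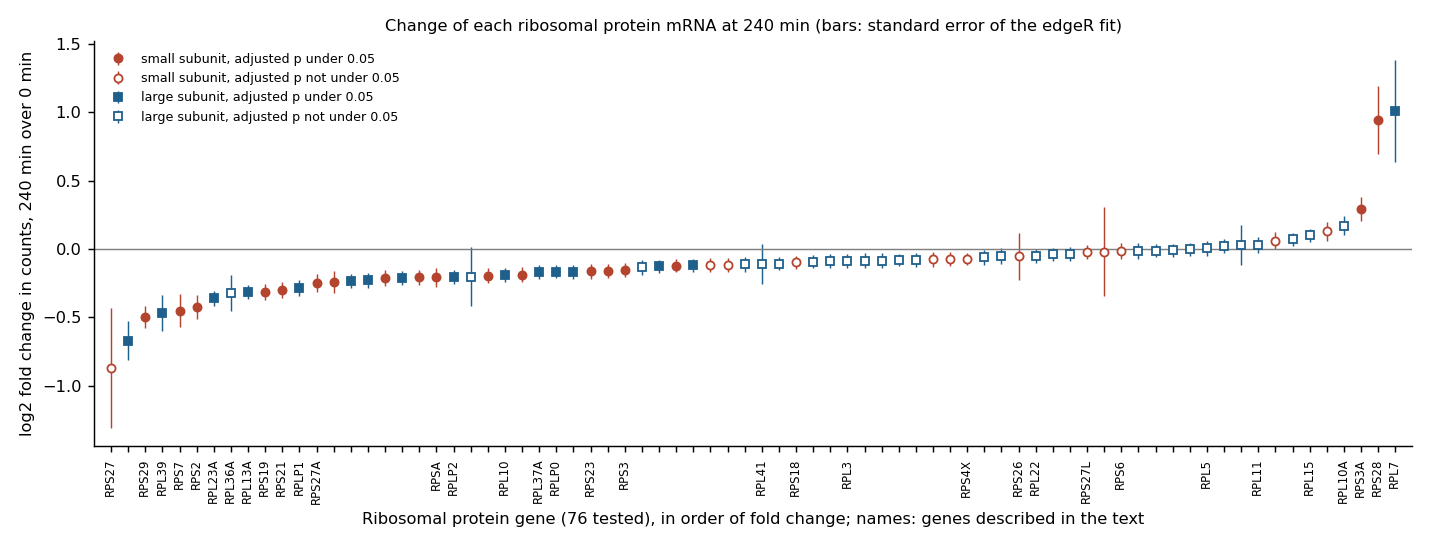
Log2 fold change in counts at 240 min over 0 min for each of the 76 ribosomal protein genes tested, in order of size, with the standard error of the edgeR fit (circles small, squares large subunit; filled where the adjusted p was under 0.05; names only for genes described in the text). Most genes lie between −0.3 and 0.1, and the few beyond 0.2 on the upper side, RPS3A, RPS28 and RPL7, have nearly all coding runs copied elsewhere.

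All proteins of the ribosomal stalk had lower mRNA at 240 min. RPLP0, which anchors the stalk and whose mRNA is the reference of the study's RT-qPCR, had 441 and 446 CPM at 0 min, 411 and 415 after 5 min, 447 and 445 after 10 min, 449 and 428 after 30 min, and 401 and 390 after 240 min. The 240 min libraries were the lowest of the 10, and the 5 min libraries the next. It fell by 0.17 ± 0.05 (SE) on the log2 scale at 240 min (adjusted p = 0.00754). In TPM, with 1514 and 1539 at 0 min and 1420 and 1451 at 240 min, the difference was −0.09 (limma adjusted p = 0.311), and without 1 of the libraries of these times the largest adjusted p was 0.0517. For RPLP1 the fold change was −0.29 ± 0.06 (adjusted p = 0.000579), and RPLP2, its partner, had 216 and 203 CPM at 0 min and 179 and 184 at 240 min (−0.21 ± 0.05, adjusted p = 0.00331). Both kept the call in each of the 4 fits that left out a library.

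Some of the clearest falls were in genes with hardly any copies in the genome. RPS19, needed to mature the small subunit and the gene most often mutated in Diamond-Blackfan anaemia, had 2.07% copied runs. Its CPM was 287 and 280 at 0 min, 254 and 236 after 5 min, 281 and 273 after 10 min, 287 and 252 after 30 min, and 227 and 228 after 240 min. The 240 min values lay below all others, and the log2 fold change was −0.32 ± 0.06 (adjusted p = 0.000201) in counts and −0.29 (adjusted p = 0.0267) in TPM. RPS21, another small subunit protein, with 1.5% copied runs, went from 284 and 262 CPM to 216 and 228 (−0.30 ± 0.06, adjusted p = 0.000355; TPM −0.25, adjusted p = 0.0422); it was named after its values were seen, as a gene called in both units. RPL37A, with 4.41% copied runs, had 805 and 786 CPM at 0 min and 715 and 699 at 240 min (−0.17 ± 0.05, adjusted p = 0.0101), a smaller change that lost the call without 1 library (largest adjusted p 0.0648). Its TPM was 4866 and 4801 at 0 min and 4413 and 4403 at 240 min (−0.13, limma adjusted p = 0.214). Among the 15 tested members with under 10% copied runs, 5 were lower (background 20.4%) and 0 higher (background 20.6%), with a median of −0.08. With 10% to under 50% these counts were 11 and 0 of 25 (median −0.09), and with 50% or more 15 and 3 of 36 (median −0.14).

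Larger falls were found among genes with more copies. RPS29, a small zinc-binding protein of the small subunit, with 58.0% copied runs and no tract in the window shown above, had 107 and 95.9 CPM at 0 min and 66.3 and 77.4 at 240 min (−0.50 ± 0.08, adjusted p = 7.45e-05). Its TPM was 925 and 844 at 0 min and 625 and 738 at 240 min (−0.38, adjusted p = 0.0685).

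RPS2, RPS7 and RPL39 were lower in counts by a good deal more than in TPM. RPS2, which lies at the mRNA entry of the small subunit, had 116 and 114 CPM at 0 min and 77.6 and 94.3 at 240 min (−0.43 ± 0.09, adjusted p = 0.000893), against −0.07 in TPM (adjusted p = 0.413). RPS7, a small subunit protein that also binds MDM2, had 40.3 and 37.2 CPM at 0 min and 25.98 and 30.8 at 240 min (−0.45 ± 0.12, adjusted p = 0.00522; TPM −0.06, adjusted p = 0.47). RPL39 went from 23.6 and 20.6 CPM to 14.3 and 17.7 (−0.47 ± 0.13, adjusted p = 0.00827; TPM −0.17, adjusted p = 0.0304). None of these 3 overlapped 0 min in CPM, and RPS7 and RPL39 lost the call when 1 library was left out (largest adjusted p 0.0958 and 0.149). RPL23A, near the exit tunnel, had 130 and 124 CPM at 0 min and 93.5 and 104 at 240 min. It fell by 0.36 ± 0.06 (adjusted p = 4.65e-05), the smallest p of any member, and by 0.14 in TPM (adjusted p = 0.0203). RPL13A, which besides its place in the ribosome takes part in translational silencing, had 166 and 169 CPM at 0 min and 133 and 137 at 240 min. Its fold change was −0.32 ± 0.05 (adjusted p = 5.33e-05), and its TPM, 640 and 680 against 548 and 513, spread more widely (−0.31, adjusted p = 0.269).

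Other members with known roles did not pass the test at 240 min. RPS6 had 1078 and 1045 CPM at 0 min and 1105 and 996 at 240 min (−0.01 ± 0.06, adjusted p = 0.858), the groups overlapping. RPL5 and RPL11 form, with 5S rRNA, the particle that binds MDM2. RPL5 had 632 and 616 CPM at 0 min and 652 and 601 at 240 min (0.01 ± 0.06, adjusted p = 0.93). RPL11 had 559 and 561 CPM at 0 min and 615 and 529 at 240 min (0.03 ± 0.06, adjusted p = 0.701). In each of these 3 genes 240 min replicate 1 was above both 0 min libraries and replicate 2 below both, so the spread at 240 min exceeds the shift. RPL10A, named after its values were seen, showed the same kind of gap, with 261 and 208 CPM at 240 min against 209 and 209 at 0 min (0.17 ± 0.07, adjusted p = 0.063).

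RPSA, the precursor of the laminin receptor as well as a small subunit protein, had 51.8 and 52.9 CPM at 0 min and 43.96 and 47.0 at 240 min (−0.21 ± 0.07, adjusted p = 0.0218), a call that was lost when 1 library was left out (largest adjusted p 0.183). RPS4X, the X-linked form of eS4, had 530 and 518 CPM at 0 min and 505 and 491 at 240 min (−0.07 ± 0.05, adjusted p = 0.229). RPL22, whose paralog RPL22L1 has another naming pattern, had 92.9 and 98.6 CPM at 0 min and 94 and 91.4 at 240 min (−0.05 ± 0.05, adjusted p = 0.482), the groups overlapping.

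Of the paralog pairs only some could be tested on both sides. RPL10 had 127 and 126 CPM at 0 min and 109 and 113 at 240 min (−0.19 ± 0.05, adjusted p = 0.00565; TPM −0.19, adjusted p = 0.106). That call was lost without 1 library (largest adjusted p 0.0608). RPL10L was too low to test, with 1 to 8 counts in a library. RPL3 had 745 and 718 CPM at 0 min and 693 and 684 at 240 min (−0.09 ± 0.05, adjusted p = 0.181). RPS27L, which is a target of p53, had 114 and 111 CPM at 0 min, 116 and 118 after 5 min, 116 and 117 after 10 min, 117 and 122 after 30 min, and 104 and 117 after 240 min. It was above both 0 min libraries at 5, 10 and 30 min, without passing the test at any of them (log2 fold changes 0.06, 0.06 and 0.09, adjusted p = 0.63, 0.976 and 0.703). RPS18, one of the most abundant members, had 474 and 460 CPM at 0 min and 432 and 441 at 240 min (−0.10 ± 0.05, adjusted p = 0.108).

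The 3 rises at 240 min were in genes with nearly all coding runs copied elsewhere. RPL7, with 99.7% copied runs, had 7 and 30 counts at 0 min and 28 and 21 at 240 min, which is 0.325 and 0.673 CPM against 1.12 and 1.104 (1.01 ± 0.38, adjusted p = 0.0389). RPS28, with all runs copied, had 27 and 42 counts at 0 min and 59 and 31 at 240 min (0.94 ± 0.25, adjusted p = 0.00489). RPS3A, with 98.9% copied runs, had 16.6 and 14.8 CPM at 0 min and 18.6 and 19.55 at 240 min (0.29 ± 0.09, adjusted p = 0.0097). In TPM none of the 3 was called, with differences of 0.04, −0.23 and −0.02, so that RPS28 and RPS3A changed sign. For RPS28 the TPM was 212 and 198 at 0 min and 174 and 176 at 240 min. All 3 lost the call when 1 library was left out, with a largest adjusted p of 0.178, 0.166 and 0.189. Counts and TPM differed most for these first 2 genes and for RPS27, whose log2 fold change was −0.87 ± 0.44 (adjusted p = 0.123) in counts and 0.02 in TPM.

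**Figure D5:**
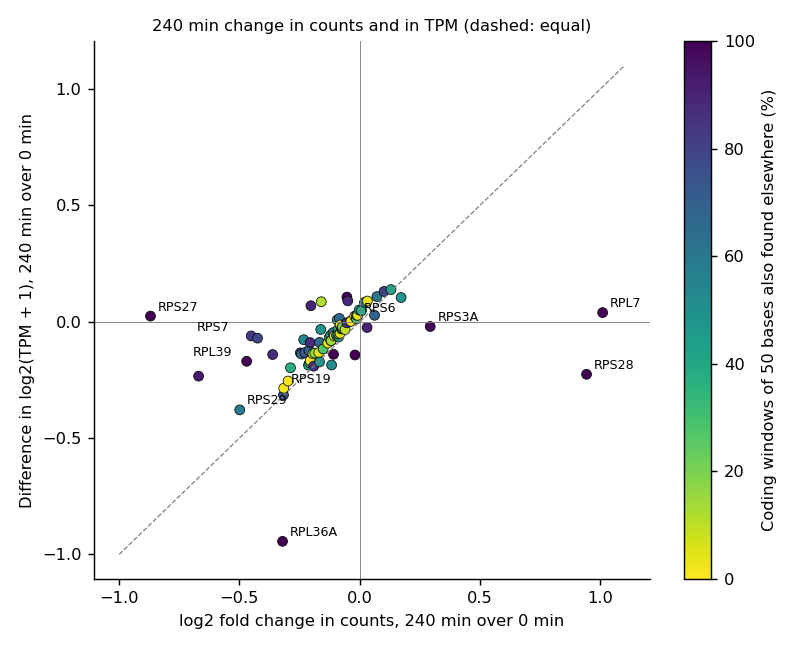
Change at 240 min over 0 min of each of 76 ribosomal protein genes in counts (horizontal axis, log2 fold change) and in TPM (vertical axis, difference of log2(TPM + 1)), coloured by the percentage of copied coding runs, with a dashed line of equal change. Most genes with few copies lie near the line, and the genes far from it, RPS27, RPL7, RPS28 and RPL36A, have nearly all runs copied; the TPM value of RPL36A rests on 240 min replicate 2, at 53.1 TPM against 187 to 233 in the other 9 libraries.

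Across the 76 genes the 240 min changes in counts and TPM had a Spearman correlation of 0.72 and a Pearson correlation of 0.34, both from the same reads. Of the 46 tested members with a tract at the start, 21 were lower at 240 min (background 20.4%), 1 was higher (background 20.6%) and the median was −0.13. Of the 16 without one, 5 were lower and 1 higher, with a median of −0.09.

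Genes that belong to the ribosome or its regulation but lie outside the naming rule were read from the same fit. None of them was called at 5, 10 or 30 min. Of 7 ribosomal protein genes with other names, 3 were lower at 240 min (background 20.4%) and 1 higher (background 20.6%). FAU, which encodes a fusion of a ubiquitin-like protein with the ribosomal protein eS30, showed the largest fall, from 95.7 CPM ± 3.84 (SD, n = 2) to 79.5 (log2 fold change −0.27, adjusted p = 0.00119). RACK1 (GNB2L1 in the files, −0.16, adjusted p = 0.0171), a scaffold on the small subunit, fell too. RPL36AL, a paralog of RPL36A, rose from 59.9 CPM ± 1.48 to 73.6 (0.30, adjusted p = 0.000257; TPM 0.32). Of 17 translation factors and other genes with TOP mRNAs, 8 were lower and 1 was higher, against the same backgrounds, with a median of −0.12. The largest fall was that of EEF2, the factor of ribosome translocation (−0.22, adjusted p = 0.00388), and the rise was that of NPM1, a nucleolar protein of ribosome assembly (0.22, adjusted p = 0.00564).

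In the mTORC1 and S6 kinase pathway 7 of 16 genes were lower at 240 min (background 20.4%), 5 were higher (background 20.6%) and the median was −0.00344. TSC1, which restrains mTORC1 with TSC2, went from 65 CPM ± 4.16 to 39.3 (−0.72, adjusted p = 3.43e-08), and DDIT4, another inhibitor of mTORC1, from 11.4 CPM ± 1.15 to 21.2 (0.91, adjusted p = 2.51e-07). MTOR itself was lower (−0.27, adjusted p = 0.000116), and LARP1, which binds TOP mRNAs, was higher (0.15, adjusted p = 0.0195). Of 7 transcription factors at ribosomal protein promoters, YY1 was lower, from 122 CPM ± 4.52 to 94.1 (−0.38, adjusted p = 8.25e-06), and the others, MYC and GABPA among them, were not called. Among the hepatocyte markers HNF4A, a transcription factor of hepatocytes, was the 1 call (0.30, adjusted p = 0.000101), and ACTA2 was the 1 call among the 5 tested markers of other cells.

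The series also holds an IR ChIP-seq peak list from 1 library of HepG2 cells given 3 nM insulin, with an input but without a replicate. A peak lay within 1 kb of the start of 12 of the 81 members (14.8%), against 1701 of the 13852 tested genes (12.3%). In order of peak score they included RPL23A, RPLP2, RPS27A, RPS26, RPL15, RPL41, RPS19, RPS3, RPL7 and RPS23. The peak at RPLP2 (hg19 chr11:809371-809992) covers the gene's start at 809936 and scored 349, the 346th highest of 1971 peaks, whose median is 79, and the peak at RPS19 (chr19:42363705-42364314) 75. Of the 12, 8 were called lower at 240 min, against 40.8% of the tested members and 20.4% of all genes tested, 1 was called higher, RPL7, and 3 were not called. Whether members with and without a peak differ was not tested. With windows of 5 kb the same number of members had a peak, and with peaks above the median score 7 had one (8.64%, against 6.80% of tested genes).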

How the data were processed

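HepG2 RNA-seq reads were, per the labels and the study's methods, trimmed with Trim Galore 0.6.4, aligned to hg19 with STAR 2.6.1d and counted as reverse-stranded with featureCounts 1.6.4 inside an nf-core pipeline. The authors deposited raw counts per gene, not normalized, and StringTie TPM per library. Duplicates were marked, and whether they were removed and how reads with several alignments were counted is not given in the sources used here. The IR peak score in the table the authors deposited came from MACS2 2.2.7.1 and HOMER after BWA alignment. The deposited RNA-seq protocols describe DNA libraries and seem exchanged with those of the ChIP-seq.

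Counts were tested by the quasi-likelihood F test of edgeR 4.0.16 (R 4.3.3) after filterByExpr by time and TMM scaling. The 10 libraries entered 1 model without a block, with Benjamini-Hochberg adjustment over 13852 genes. The 92 spike-in rows (1.59% to 2.36% of counts) stayed out. CPM is counts over TMM library size, and SE was derived from the F statistic. TPM was tested with limma 3.58.1 on log2(TPM + 1), whose differences understate changes of low genes. Depth of 18347109 to 45005769 counts bounds the precision of genes with few counts. The members and lists were chosen with earlier results of these data known.

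Genes named are the stalk genes, RPS6, RPL5, RPL11, RPS19, RPSA, RPS4X and the paralog pairs RPL3, RPL10, RPL39 and RPS27 with RPL22, the 8 largest called rises and falls at each time without overlap, the 3 highest and 3 lowest TPM, the 3 largest gaps between counts and TPM, members not tested, and the largest called change of each list. A few genes that this rule names, or that a list or count includes, are not reported here by name. Coding runs of 50 bases were searched on GRCh37 with GENCODE annotation, within 2 kb of the gene's own transcript counted as itself, and the classes of copied runs were chosen after seeing the data. Promoters are those of RefSeq, GRCh38.p14. Alternatives were DESeq2 1.42.0, other filters, RLE, upper-quartile, spike-in and member-free scaling, only the times compared, a replicate block, TPM with pseudocounts of 1 and 0.1 and a minimum mean of 1, a GC and length correction (12684 genes, 91.6%, with a value), and each library left out. Tested on simulated data, in which 200 of 13729 genes changed at 240 min, the fit recovered 83.5% of them, and 8.24% of its calls were false. Every change set in the simulation was larger than the median of the 31 members, −0.21 on the log2 scale. How far these rates hold for differences as small as those of the 31 members was not tested. Python 3.11.15, pandas 2.3.3, numpy 2.4.6 and matplotlib 3.10.9 were used.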

Additional observations from a re-analysis of the deposited data

How the results depend on the processing

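The number of members called lower at 240 min, 31, was 26 to 42 under other filters, RLE, upper-quartile and member-free scaling, the fit of only the times compared, DESeq2 and the GC and length correction. Backgrounds in these settings ran from 13.8% to 24.5%. The number was 5 of 76 with spike-in scaling (background 5.26%). With limma on TPM it was 5 of 80 with a pseudocount of 1 or 0.1 (background 8.59% and 8.65%). It was 10 of 79 where only genes averaging 1 TPM or more were kept (background 13.3%). In these limma settings the share of members called lower was not above that of all genes. Leaving out 1 library gave 18 to 32, the lowest without 0 min replicate 1. The number higher, 3, was 5 without the filter and with upper-quartile scaling, 0 with spike-in scaling, DESeq2 and limma with either pseudocount, 1 where genes averaging 1 TPM or more were kept, and 1 to 5 when 1 library was left out (1 without 0 min replicate 2 or 240 min replicate 1, 5 without 240 min replicate 2). At 5 min 6 members were called without the filter and 0 under every other alternative, and at 10 and 30 min 0 were called under each. The causes were not tested. RPS28 changed sign in TPM (−0.23 with each limma setting), as did RPS3A (−0.0205 with each). Spike-in scaling moved the median of all genes by −0.08, −0.33, −0.13 and −0.12 at 5, 10, 30 and 240 min, and 31.3% of its 1059 calls at 240 min were higher against 50.2% of 5676. The replicate block gave 33 lower (background 21.1%) and 3 higher at 240 min. Same-numbered libraries did not deviate together over all genes (correlations −0.115 to 0.133, median 0.0471, 10 pairs), although over the members the median was 0.475, from −0.57 to 0.808. IR peaks above the median score were found at 7 members in place of 12. Genes with few counts are limited by depth.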
